A study of Mus musculus with 6 samples.

Results

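The 36 genes described here encode the mitochondrial enzymes that oxidise pyruvate, run the citrate cycle and break down fatty acids by beta oxidation, together with the cytosolic malate dehydrogenase Mdh1. They were chosen by symbol, and all 36 were found among the 11489 genes of the table. Of these, 18 belong to pyruvate oxidation, anaplerosis and the citrate cycle, and 18 to fatty acid oxidation. Total RNA was sequenced from mouse cells labelled as macrophages derived from bone marrow, sorted for the macrophage surface protein F4/80 and for eGFP tied to Epor, the erythropoietin receptor gene. The groups are F4/80+Epor-eGFP+ (3 libraries) and F4/80+Epor-eGFP- (3 libraries). The labels call both groups erythroblastic island macrophages, cells that nurse maturing erythroblasts. The sources used here do not give strain, sex, age or how the reporter was built, and do not say whether each library is a different mouse. The p-values therefore speak of differences among 6 libraries, whose scatter within a group could be technical alone. Libraries are named by the number in their column, and values are given in the order 0, 1 and 2 within each group.

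Pyruvate enters mitochondria and is turned into acetyl-CoA by the pyruvate dehydrogenase complex. Long-chain fatty acids enter as carnitine esters and are shortened to acetyl-CoA by repeated rounds of dehydrogenation, hydration, a further dehydrogenation and thiolysis. The citrate cycle oxidises acetyl-CoA from both sources, and the electrons pass to the respiratory chain. In macrophages the balance between this oxidation and glycolysis is known to differ with the state of activation, and citrate and succinate also serve as precursors and signals.

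Most of these genes were higher in Epor-eGFP+ cells, by modest amounts. Of 36 members, 22 rose, 1 fell and 13 did not pass (limma on log2(FPKM + 1), adjusted p below 0.05 over all 10964 tested genes). Among all tested genes, 22.7% rose and 26.3% fell. The median log2 fold change was 0.30 over the members and −0.01 over all tested genes. Among the genes that rose, Etfb, Suclg2, Idh3a and Idh2 had the largest log2 fold changes in this fit, Pcx aside. Pcx passed the filter on mean FPKM only through its Epor-eGFP+ values, and its place depended on the pseudocount. The gene that fell was Cpt1a. Log2 fold changes are Epor-eGFP+ minus Epor-eGFP-, on the log2(FPKM + 1) scale, which understates changes of low genes. The groups did not overlap, with higher values in Epor-eGFP+, for 24 members (28.4% of all tested genes), and with lower values for 1 (31.9%). With the column number as a block, 25 members rose (28% of all tested genes did) and 1 fell (30.4%).

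All 36 members averaged 1 FPKM or more across the 6 libraries and were tested. Only Pcx had a group mean below 1 FPKM, so it passed the filter only through its Epor-eGFP+ values, and no member was listed at 0. Pcx therefore had to differ, and its rise is no support for the counts of members that rose. With a filter of 5 FPKM, which left Pcx out, 21 members rose. FPKM is scaled to gene length, so levels may be compared between genes. The median level of the members was 43.6 FPKM against 13.02 FPKM over all tested genes. Mdh2 and Etfb had the highest FPKM and Pcx the lowest. The spread between libraries of a group was small, with a median coefficient of variation over the members of 6.37% in Epor-eGFP+ and 5.14% in Epor-eGFP-, against 9.44% in Epor-eGFP+ and 9.09% in Epor-eGFP- over all tested genes.

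**Figure D1:**
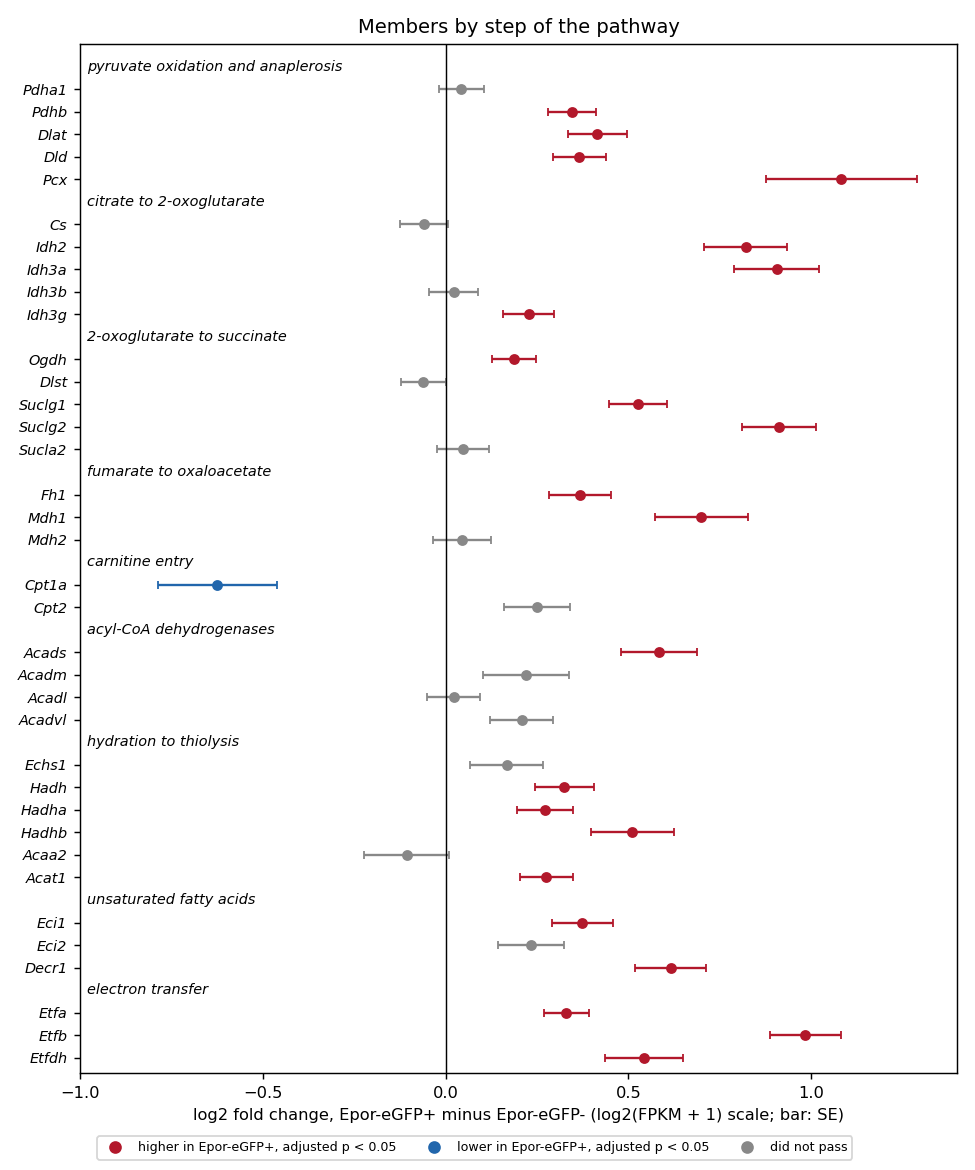
Log2 fold change (Epor-eGFP+ minus Epor-eGFP-, log2(FPKM + 1) scale) of the 36 members, ordered by step of the pathway, with bars for the SE of limma and colours for the call. The 22 red points lie to the right of 0, and Cpt1a is the single blue point, at −0.63.

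F4/80 marks macrophages, and its gene Adgre1 was at 143, 117 and 241 FPKM in Epor-eGFP+ and 136, 132 and 139 FPKM in Epor-eGFP- (adjusted p = 0.463). Markers of several cell types were present in both groups, and many moved with the comparison. All 10 markers of island and resident macrophages rose, such as Vcam1, Cd163 and C1qa, and summed to 1842 to 6964 FPKM in Epor-eGFP+ and 106 to 149 FPKM in Epor-eGFP-. Of 12 erythroid markers, 10 rose (11 with the block), none fell and 2 did not pass, and they summed to 313 to 450.01 FPKM in Epor-eGFP+ and 40.2 to 50.2 FPKM in Epor-eGFP-. All 8 late granule markers of neutrophils fell (13130 to 17070 FPKM in Epor-eGFP+, 24517 to 38749 in Epor-eGFP-), as did all 7 monocyte markers (1206 to 1508 FPKM in Epor-eGFP+, 2908 to 4106 in Epor-eGFP-). All 4 azurophil granule markers of promyelocytes rose and summed to 7532 to 9353 FPKM in Epor-eGFP+ and 1428 to 2673 in Epor-eGFP-. Of 6 proliferation genes, 1 rose (Ccnb1) and 5 did not pass, while 3 rose with the column number as a block (adding Mcm2 at an adjusted p of 0.00462 and Mcm5 at 0.0193), at 546 to 732 FPKM in Epor-eGFP+ and 480.5 to 652 in Epor-eGFP-. Of the 7 eosinophil markers, 1 rose, 4 fell and 2 did not pass (2697 to 12908 FPKM in Epor-eGFP+, 8964 to 14114 in Epor-eGFP-), and Prg2 was listed at 0 in Epor-eGFP+ library 0. Of the 7 markers of macrophages as a class, 1 rose, 1 fell and 5 did not pass, while 3 rose and 2 fell with the block (3860.1 to 4594 FPKM in Epor-eGFP+, 1087 to 11522 in Epor-eGFP-), and Lyz2 was listed at 0 in Epor-eGFP- library 2. T and NK markers summed to 201 to 256 FPKM in Epor-eGFP+ and 51.9 to 94.1 FPKM in Epor-eGFP- (1 of 3 tested rose, Nkg7, and 2 fell). Most of that sum was Nkg7 (229, 254 and 199 FPKM in Epor-eGFP+, 65.4, 87.6 and 45.9 FPKM in Epor-eGFP-). The other markers, Il2rb, Ncr1 and the untested Cd3d, were lower in every Epor-eGFP+ library. B lineage markers (1 of 5 rose, none fell) summed to 203 to 273 FPKM in Epor-eGFP+ and 115 to 353 FPKM in Epor-eGFP-, and megakaryocyte markers (1 of 4 rose, or 3 with the block, and none fell) to 78.8 to 164 FPKM in Epor-eGFP+ and 29.6 to 86.1 FPKM in Epor-eGFP-. The libraries are bulk RNA, so fewer cells of a type and less RNA per cell cannot be told apart, and the part of these cells in the members' differences was not tested.

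In the pyruvate dehydrogenase complex, 3 of 4 members rose (22.7% of all tested genes did). Pdhb, the beta subunit of its decarboxylase, was at 55.8, 54.1 and 51.0 FPKM in Epor-eGFP+ libraries against 42.7, 41.0 and 42.2 FPKM in Epor-eGFP- libraries (log2 fold change 0.34, SE 0.07, adjusted p = 0.00554). Dlat, the acetyltransferase core, was at 14.8, 15.0 and 12.9 FPKM in Epor-eGFP+ against 10.2, 10.9 and 10.1 FPKM in Epor-eGFP- (0.42, SE 0.08, adjusted p = 0.00626). Dld, the dihydrolipoyl dehydrogenase that this complex shares with the oxoglutarate dehydrogenase complex, rose by 0.37 (SE 0.07, adjusted p = 0.00642). For these 3 genes every Epor-eGFP+ library lay above every Epor-eGFP- library. Pdha1, the alpha subunit and the target of the pyruvate dehydrogenase kinases, was at 49.97, 51.3 and 48.2 FPKM in Epor-eGFP+ against 49.3, 47.7 and 48.0 FPKM in Epor-eGFP-, with overlapping groups (0.04, SE 0.06, adjusted p = 0.596). The ratio of Pdha1 to Pdhb was 0.895, 0.947 and 0.945 in Epor-eGFP+ against 1.15, 1.16 and 1.14 in Epor-eGFP-. Its groups did not overlap (difference −0.30 on the log2 scale, exact two-sided permutation p = 0.1, the smallest that 3 against 3 libraries allow).

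Pcx encodes pyruvate carboxylase, which refills oxaloacetate from pyruvate. It was at 2.50, 2.07 and 3.80 FPKM in Epor-eGFP+ and at 0.834, 1.06 and 0.436 FPKM in Epor-eGFP- (1.08, SE 0.21, adjusted p = 0.00567). Its lowest Epor-eGFP+ value was above its highest Epor-eGFP- value, and at such levels the log2 fold change depends on the pseudocount. It was 0.43 with a pseudocount of 5, 1.75 with 0.1 and 0.89 under quantile normalization. With no filter on low values the adjusted p of Pcx was 0.00558, and with a filter of 5 FPKM it was not tested.

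On the way from citrate to oxoglutarate, 3 of 5 members rose (22.7% of all tested genes did). Cs, citrate synthase, was at 93.1, 93.9 and 86.8 FPKM in Epor-eGFP+ and 94.8, 92.8 and 97.5 FPKM in Epor-eGFP- (−0.06, SE 0.07, adjusted p = 0.491), so the groups overlapped, and the sign of its difference turned when libraries were rescaled to a common total or upper quartile. Idh2, the mitochondrial NADP-dependent isocitrate dehydrogenase, was at 100.3, 87.4 and 93.6 FPKM in Epor-eGFP+ against 49.9, 61.6 and 47.3 FPKM in Epor-eGFP- (0.82, SE 0.11, adjusted p = 0.00179). Idh3a, the catalytic subunit of the NAD-dependent enzyme, was at 33.9, 36.8 and 33.2 FPKM in Epor-eGFP+ against 17.2, 21.4 and 15.8 FPKM in Epor-eGFP- (0.91, SE 0.12, adjusted p = 0.00140). Both isocitrate dehydrogenase genes were thus higher in every Epor-eGFP+ library. The other subunits of the NAD-dependent enzyme had smaller log2 fold changes. Idh3b was at 53.8 ± 1.17 FPKM in Epor-eGFP+ and 53.0 ± 2.65 FPKM in Epor-eGFP- (SD, n = 3 each, adjusted p = 0.797). Idh3g was at 99.6 ± 5.70 FPKM in Epor-eGFP+ and 84.9 ± 1.85 FPKM in Epor-eGFP- (0.23, SE 0.07, adjusted p = 0.0333), a call lost when any one library other than Epor-eGFP+ library 1 was left out (adjusted p 0.00949 to 0.117 over 16 alternatives). In FPKM the catalytic subunit was the lowest of the 3 in every library. The ratio of Idh3a to Idh3b, a pair chosen after the values were seen, was 0.620, 0.702 and 0.612 in Epor-eGFP+ and 0.335, 0.417 and 0.281 in Epor-eGFP-. For Idh2 to Idh3a the ratio was 2.96, 2.37 and 2.82 in Epor-eGFP+ and 2.89, 2.87 and 2.9996 in Epor-eGFP-, which overlap (difference −0.09 on the log2 scale, exact two-sided permutation p = 0.6).

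From oxoglutarate to succinate, 3 of 5 members rose (22.7% of all tested genes did). Ogdh, the decarboxylase of the oxoglutarate dehydrogenase complex, was at 51.6, 51.9 and 54.1 FPKM in Epor-eGFP+ against 45.3, 46.7 and 46.1 FPKM in Epor-eGFP- (0.19, SE 0.06, adjusted p = 0.0391), a call lost when any single library was left out, without both libraries numbered 2 and without the mean-variance trend (adjusted p 0.0134 to 0.126 over 16 alternatives). Dlst, the succinyltransferase of the same complex, was at 58.8, 57.6 and 57.0 FPKM in Epor-eGFP+ and 62.8, 59.6 and 58.6 FPKM in Epor-eGFP-, did not pass (adjusted p = 0.450), and its sign turned under the same rescalings as that of Cs. Succinate-CoA ligase pairs the alpha subunit Suclg1 with a beta subunit that uses GDP (Suclg2) or ADP (Sucla2). Suclg1 was at 56.0, 59.7 and 55.4 FPKM in Epor-eGFP+ against 38.5, 42.8 and 36.7 FPKM in Epor-eGFP- (0.53, SE 0.08, adjusted p = 0.00238). Suclg2 was at 19.2, 17.98 and 19.6 FPKM in Epor-eGFP+ against 9.32, 11.1 and 8.57 FPKM in Epor-eGFP- (0.91, SE 0.10, adjusted p = 0.000880). Neither of these genes had overlapping groups. Sucla2 was at 22.8, 24.2 and 21.4 FPKM in Epor-eGFP+ and 22.4, 21.6 and 22.0 FPKM in Epor-eGFP-, with overlap (0.05, SE 0.07, adjusted p = 0.599). The ratio of Suclg2 to Sucla2 was 0.845, 0.742 and 0.915 in Epor-eGFP+ and 0.416, 0.510 and 0.389 in Epor-eGFP- (difference 0.86 on the log2 scale, exact two-sided permutation p = 0.1). The GDP-linked subunit therefore stood closer to the ADP-linked one in Epor-eGFP+ cells, although it stayed the lower of the pair in every library. Transcripts of Suclg2 nearly match another annotated gene, Gm15163, so its values are uncertain to that extent.

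The 250 bases before the RefSeq starts of these beta subunit genes (GRCm38.p6) are shown because these subunits, alternatives within 1 enzyme, had such different values. Capitals mark GC boxes (GGGCGG or its complement) and CCAAT boxes (CCAAT or ATTGG). Suclg2 (chr6:95718847-95719096, minus strand) held 5 GC boxes, which may overlap, and 1 CCAAT box, and Sucla2 (chr14:73552536-73552785, plus strand) held 1 GC box and 0 CCAAT boxes. The RefSeq start of Sucla2 lies 27467 bases inside the gene as GENCODE M21 draws it (73525319 to 73596142), and 20 bases past the start of another of its transcripts there.
Suclg2: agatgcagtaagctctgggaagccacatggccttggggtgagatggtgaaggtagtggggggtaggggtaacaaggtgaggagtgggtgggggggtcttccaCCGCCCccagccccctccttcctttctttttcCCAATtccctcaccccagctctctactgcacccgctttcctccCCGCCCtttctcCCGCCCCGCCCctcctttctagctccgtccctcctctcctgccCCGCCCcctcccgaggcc
Sucla2: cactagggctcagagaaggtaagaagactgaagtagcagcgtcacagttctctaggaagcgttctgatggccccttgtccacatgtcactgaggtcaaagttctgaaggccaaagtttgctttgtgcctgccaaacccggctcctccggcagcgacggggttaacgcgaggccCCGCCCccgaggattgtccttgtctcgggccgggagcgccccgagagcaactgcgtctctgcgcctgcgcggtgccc

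Of the last steps, Fh1, fumarase, was at 48.6 ± 3.35 FPKM in Epor-eGFP+ and 37.5 ± 2.67 FPKM in Epor-eGFP- (SD, n = 3 each, 0.37, SE 0.08, adjusted p = 0.0116). Mdh1, the cytosolic malate dehydrogenase of the malate-aspartate shuttle, was at 106.3, 94.9 and 133 FPKM in Epor-eGFP+ against 65.4, 72.0 and 65.5 FPKM in Epor-eGFP- (0.70, SE 0.13, adjusted p = 0.00479). Both rose with groups that did not overlap. Mdh2, the mitochondrial malate dehydrogenase and the member with the highest FPKM, was at 235, 226 and 216 FPKM in Epor-eGFP+ and 229, 224 and 204 FPKM in Epor-eGFP-, with overlap (0.05, SE 0.08, adjusted p = 0.659). Under quantile normalization Mdh2 was at 0.26 and still did not pass (adjusted p = 0.0788). In all, 12 of the 18 pyruvate and citrate cycle members rose (Pcx included) and none fell. Among all tested genes 22.7% rose and 26.3% fell. The 6 that did not pass were Pdha1, Cs, Idh3b, Dlst, Sucla2 and Mdh2. The median log2 fold change over the 18 was 0.36. In this fit the 6 without a call had log2 fold changes between −0.06 and 0.05. Summed over the 18 genes, FPKM was 1141, 1108 and 1124 in Epor-eGFP+ against 935, 958 and 911 in Epor-eGFP-.

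**Figure D2:**
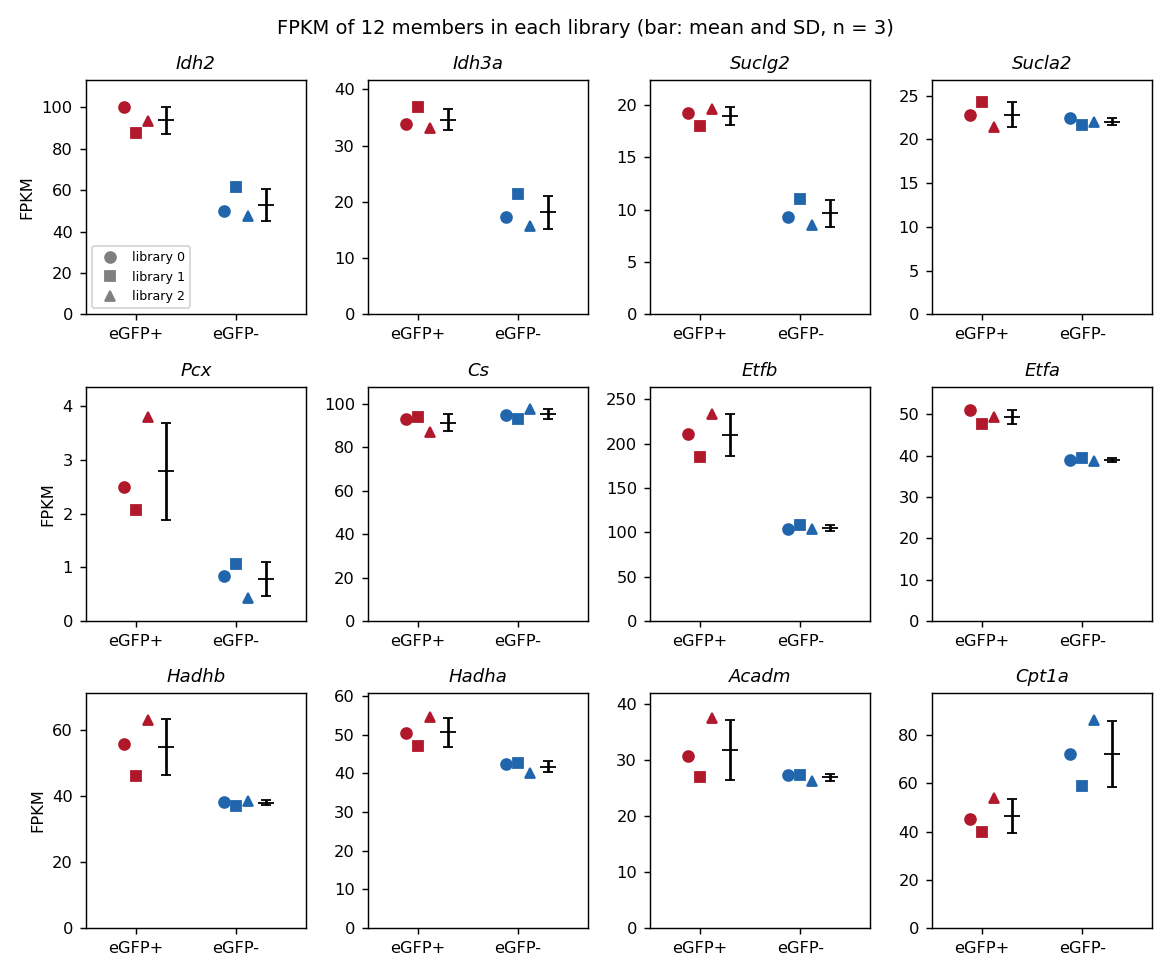
FPKM of 12 members in each library (vertical axes from 0, Epor-eGFP+ left in red, Epor-eGFP- right in blue, symbols for the column number, black bars for mean and SD, n = 3). Idh2, Idh3a, Suclg2, Pcx, Etfb, Etfa, Hadhb and Hadha are higher in every Epor-eGFP+ library, Cpt1a is lower in every one, and Sucla2, Cs and Acadm overlap between groups.

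In fatty acid oxidation, 10 of 18 members rose, 1 fell and 7 did not pass (median log2 fold change 0.27). Among all tested genes 22.7% rose and 26.3% fell. The gene that fell stands at the entry. Cpt1a, the carnitine palmitoyltransferase of the outer membrane that commits long-chain fatty acids to oxidation, was at 45.4, 39.8 and 53.9 FPKM in Epor-eGFP+ against 72.1, 58.8 and 86.2 FPKM in Epor-eGFP- (−0.63, SE 0.16, adjusted p = 0.0181). Each Epor-eGFP+ library lay below each Epor-eGFP- library, but the call was lost without Epor-eGFP+ library 0 (adjusted p = 0.0597), Epor-eGFP+ library 1 (0.0502) or Epor-eGFP- library 0 (0.0580), within a range of 0.00170 to 0.0597 over 16 alternatives. Cpt2, which returns the acyl group to CoA inside, was at 12.5, 12.2 and 13.7 FPKM in Epor-eGFP+ and 11.7, 9.67 and 10.5 FPKM in Epor-eGFP-. The groups did not overlap, and the difference missed the threshold (0.25, SE 0.09, adjusted p = 0.0560, and 0.0400 with the replicate number as a block, within 0.0150 to 0.197 over 16 alternatives). The ratio of Cpt1a to Cpt2, chosen after the values were seen, was 3.62, 3.28 and 3.92 in Epor-eGFP+ and 6.18, 6.08 and 8.19 in Epor-eGFP-.

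Of the acyl-CoA dehydrogenases, which open each round for chains of different length, 1 of 4 rose. That share is near the 22.7% of all tested genes that rose. Acads, for short chains, was at 35.7, 28.7 and 36.5 FPKM in Epor-eGFP+ against 22.6, 21.04 and 22.3 FPKM in Epor-eGFP- (0.58, SE 0.10, adjusted p = 0.00427). Acadm, for medium chains, was at 30.7, 27.0 and 37.5 FPKM in Epor-eGFP+ and 27.3, 27.2 and 26.2 FPKM in Epor-eGFP-, with Epor-eGFP+ library 1 inside the Epor-eGFP- range (0.22, SE 0.12, adjusted p = 0.164). Acadl, for long chains, was at 46.4, 43.3 and 49.1 FPKM in Epor-eGFP+ and 46.8, 45.9 and 43.8 FPKM in Epor-eGFP- (0.02, SE 0.07, adjusted p = 0.818), and its sign turned without either library numbered 2. These groups overlapped as well. Acadvl, for very long chains, was at 32.3, 27.7 and 31.6 FPKM in Epor-eGFP+ and 27.8, 24.7 and 26.3 FPKM in Epor-eGFP- (0.21, SE 0.09, adjusted p = 0.0825, and 0.0239 with the replicate number as a block, within 0.0222 to 0.247 over 16 alternatives), and its groups overlapped. The ratio of Acadl to Acadm was 1.51, 1.60 and 1.31 in Epor-eGFP+ and 1.72, 1.69 and 1.67 in Epor-eGFP- (difference −0.20 on the log2 scale, exact two-sided permutation p = 0.1). The difference was −0.12 without Epor-eGFP+ library 2 and −0.12 without both libraries numbered 2.

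From hydration to thiolysis, 4 of 6 members rose (22.7% of all tested genes did). Hadha and Hadhb encode the subunits of the trifunctional protein, which carries the later steps for long chains. Hadha was at 50.5, 47.0 and 54.5 FPKM in Epor-eGFP+ against 42.3, 42.7 and 40.2 FPKM in Epor-eGFP- (0.27, SE 0.08, adjusted p = 0.0240). Its call was lost without any one library other than Epor-eGFP+ library 1 and Epor-eGFP- library 1 (adjusted p 0.00682 to 0.0927 over 16 alternatives). Hadhb was at 55.8, 46.2 and 63.0 FPKM in Epor-eGFP+ against 38.2, 37.1 and 38.7 FPKM in Epor-eGFP- (0.51, SE 0.11, adjusted p = 0.0102). The ratio of Hadha to Hadhb was 0.905, 1.02 and 0.865 in Epor-eGFP+ and 1.11, 1.15 and 1.04 in Epor-eGFP-, with no overlap (difference −0.24 on the log2 scale, exact two-sided permutation p = 0.1). Hadh, the hydroxyacyl-CoA dehydrogenase for shorter chains, rose by 0.32 (SE 0.08, adjusted p = 0.0156) and Acat1, the acetoacetyl-CoA thiolase, by 0.28 (SE 0.07, adjusted p = 0.0181). The calls of Hadh and Acat1 were lost without Epor-eGFP+ library 0 or Epor-eGFP- library 0 and that of Acat1 also without both libraries numbered 2 (adjusted p 0.00549 to 0.0665 for Hadh and 0.00684 to 0.0723 for Acat1 over 16 alternatives). Echs1, the enoyl-CoA hydratase, was at 54.8 ± 5.81 FPKM in Epor-eGFP+ and 48.6 ± 3.56 FPKM in Epor-eGFP- (SD, n = 3 each, adjusted p = 0.203). Acaa2, the mitochondrial thiolase, was at 40.6 ± 4.45 FPKM in Epor-eGFP+ and 43.8 ± 5.27 FPKM in Epor-eGFP- (SD, n = 3 each, adjusted p = 0.470). Both had overlapping groups. The 5 ratios between members that were tested had adjusted p of 0.125, or 0.6 for Idh2 to Idh3a, over the 5.

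Hadha and Hadhb lie head to head on chromosome 5. The 272 bases between their RefSeq starts, at 30154980 (Hadha, minus strand) and 30155253 (Hadhb, plus strand), are shown because the subunits of a single enzyme share this stretch (chr5:30154981-30155252, GRCm38.p6, plus strand). Capitals mark its 2 GC boxes, and the stretch held 0 CCAAT boxes. GENCODE M21 starts Hadha at 30155162 (minus strand) and Hadhb at 30155248 (plus strand), both inside the stretch. The bases up to 30155162 thus lie inside Hadha as drawn there.
Hadha and Hadhb: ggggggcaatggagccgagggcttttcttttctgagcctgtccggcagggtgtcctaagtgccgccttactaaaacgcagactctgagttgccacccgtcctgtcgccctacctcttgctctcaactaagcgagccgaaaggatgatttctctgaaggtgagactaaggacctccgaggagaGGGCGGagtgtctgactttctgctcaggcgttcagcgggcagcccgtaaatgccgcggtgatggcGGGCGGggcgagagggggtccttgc

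Of the 3 enzymes that prepare unsaturated fatty acids, 2 rose, as did all 3 that pass on the electrons (22.7% of all tested genes rose). Decr1, the dienoyl-CoA reductase, was at 9.98, 8.79 and 9.50 FPKM in Epor-eGFP+ against 5.62, 6.56 and 5.26 FPKM in Epor-eGFP- (0.62, SE 0.10, adjusted p = 0.00284). Eci1, an enoyl-CoA isomerase, rose by 0.37 (SE 0.08, adjusted p = 0.0106). Eci2, a further isomerase, was at 34.9 ± 3.32 FPKM in Epor-eGFP+ and 29.4 ± 1.52 FPKM in Epor-eGFP- (SD, n = 3 each, adjusted p = 0.0661, and 0.0490 with the replicate number as a block, within 0.0232 to 0.236 over 16 alternatives). None of these 3 genes had overlapping groups. Etfa and Etfb form the flavoprotein that takes electrons from the acyl-CoA dehydrogenases, and Etfdh hands them to ubiquinone. Etfb was at 211, 185 and 233 FPKM in Epor-eGFP+ against 103, 109 and 103 FPKM in Epor-eGFP- (0.98, SE 0.10, adjusted p = 0.000667). Etfa was at 50.9, 47.6 and 49.3 FPKM in Epor-eGFP+ against 38.9, 39.4 and 38.6 FPKM in Epor-eGFP- (0.33, SE 0.06, adjusted p = 0.00527). Etfdh was at 23.0, 20.7 and 27.0 FPKM in Epor-eGFP+ against 16.4, 16.3 and 14.7 FPKM in Epor-eGFP- (0.54, SE 0.11, adjusted p = 0.00636). All 3 electron transfer genes thus rose with no overlap. The ratio of Etfb to Etfa, chosen after the values were seen, was 4.15, 3.89 and 4.72 in Epor-eGFP+ and 2.65, 2.76 and 2.67 in Epor-eGFP-.

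The promoters of Etfb and Cpt1a are shown as those of the largest rise and the only fall in fatty acid oxidation, 250 bases before each RefSeq start with GC boxes and CCAAT boxes in capitals (GRCm38.p6). Etfb (chr7:43443822-43444071, plus strand) held 0 GC boxes and 2 CCAAT boxes, and Cpt1a (chr19:3323051-3323300, plus strand) held 2 GC boxes and 1 CCAAT box. The RefSeq start of Cpt1a lies 967 bases inside the gene as GENCODE M21 draws it, and 16 bases past the start of another of its transcripts.
Etfb: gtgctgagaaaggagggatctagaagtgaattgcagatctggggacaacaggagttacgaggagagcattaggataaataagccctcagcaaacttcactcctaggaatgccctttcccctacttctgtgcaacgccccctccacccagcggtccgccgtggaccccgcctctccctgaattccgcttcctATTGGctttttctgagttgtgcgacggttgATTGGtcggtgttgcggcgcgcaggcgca
Cpt1a: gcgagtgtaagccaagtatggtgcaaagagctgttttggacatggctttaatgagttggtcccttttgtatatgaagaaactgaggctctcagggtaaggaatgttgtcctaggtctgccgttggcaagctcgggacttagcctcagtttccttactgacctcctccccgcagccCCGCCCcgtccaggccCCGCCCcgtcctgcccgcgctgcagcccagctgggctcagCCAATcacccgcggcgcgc

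RefSeq promoter windows, from 250 bases before to 50 after a start, were matched for 32 of the 36 members (all but Acaa2, Acat1, Decr1 and Idh3a). A GC box on either strand stood in a window of 24 of 32 members (75%) and of 38.2% of all 27025 genes in that table, genes of every kind included. CCAAT stood in windows of 16 members (50%, against 41.1% of all genes), the ETS motif CCGGAAG in 4 (12.5%, against 9.93%) and the E box CACGTG in 2 (6.25%, against 8.09%). The NRF1 core GCGCATGCG was found for Acadm, Etfdh and Ogdh (9.38%, against 1.95%), and the ERR motif TCAAGGTCA for 0 members (0.466% of all genes). None of these motifs contains another. Such matches describe letters in these windows and no binding.

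The fatty acid oxidation members largely shared 1 order of the Epor-eGFP+ libraries, given here as a description, since genes of a library share its RNA. Of the 18 fatty acid oxidation members, 17 had their lowest Epor-eGFP+ value in library 1 (33.1% of all tested genes did), the exception being Acaa2, and 12 had their highest in library 2. None was highest in library 1, where 42.3% of all tested genes were highest. They summed to 819, 720.3 and 867 FPKM in Epor-eGFP+ (order 0, 1, 2), against 629, 612 and 645 FPKM in Epor-eGFP-. Of the 18 pyruvate and citrate cycle members, 8 were highest and 6 lowest in Epor-eGFP+ library 1, and 11 were lowest in library 2 (46.1% of all tested genes). Genes of island and resident macrophages, a list of 10 all of which rose, summed to 3134, 1842 and 6964 FPKM in the same Epor-eGFP+ libraries, lowest in library 1 and highest in library 2. The 4 azurophil granule genes of promyelocytes, which also all rose, summed to 7926, 9353 and 7532 FPKM, highest in library 1. The part of either cell type in the members' values was not tested.

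Within Epor-eGFP-, the called genes leaned towards library 1. Of the 12 cycle members that rose, 10 had their highest Epor-eGFP- value in library 1, as did 60.5% of all tested genes that rose. Idh2, for example, was at 61.6 FPKM there and at 49.9 and 47.3 FPKM in libraries 0 and 2. The azurophil granule genes summed to 1484, 2673 and 1428 FPKM in Epor-eGFP- libraries 0, 1 and 2.

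**Figure D3:**
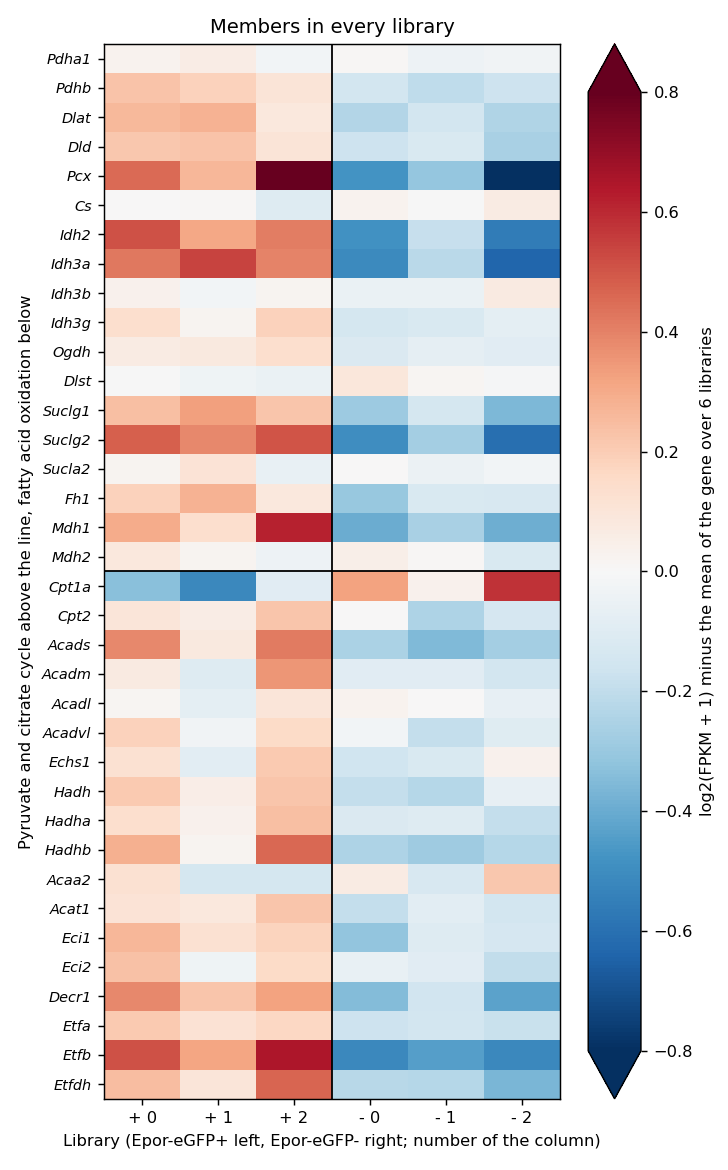
Log2(FPKM + 1) of each member minus its mean over the 6 libraries, with Epor-eGFP+ libraries left and Epor-eGFP- libraries right, colours cut at ±0.8, and cycle members above the line. Below the line, 17 of 18 members have their lowest Epor-eGFP+ value in library 1, and Cpt1a lies below its mean in all 3 Epor-eGFP+ libraries.

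Other genes of the same pathways were read from lists. For each list, the shares to compare with are those over all tested genes, of which 22.7% rose and 26.3% fell. With the column number as a block these shares were 28% and 30.4%. Of 6 further genes listed with the citrate cycle, 5 rose, none fell and 1 did not pass (median 0.43, Dhtkd1 included). Of these, Dhtkd1 is a dehydrogenase of oxoadipate and not an enzyme of the cycle itself. Dhtkd1 was at 1.85, 1.60 and 1.45 FPKM in Epor-eGFP+ against 0.374, 0.566 and 0.274 FPKM in Epor-eGFP-, where its mean was under 1 FPKM. It passed the filter only through its Epor-eGFP+ values, so it had to differ and its rise is no support for the count (log2 fold change 0.91, SE 0.13). With no filter on low values its adjusted p was 0.00186. Among succinate dehydrogenase subunits, Sdhc rose by 0.61 (SE 0.12) and Sdha, the flavoprotein, by 0.45 (SE 0.07), while Sdhb, the iron-sulphur subunit, did not pass (0.07, SE 0.09, adjusted p = 0.551). Sdhd, the subunit that anchors the enzyme in the membrane beside Sdhc and named after its values were seen, rose by 0.32 (SE 0.07, adjusted p = 0.00722). Of 9 genes of pyruvate import and pyruvate dehydrogenase control, 1 rose, 1 fell and 7 did not pass. Pdk1, a kinase that switches the dehydrogenase off, was at 11.5, 10.1 and 12.1 FPKM in Epor-eGFP+ against 5.33, 5.92 and 4.76 FPKM in Epor-eGFP- (0.95, SE 0.10, adjusted p = 0.000872). Mpc2, a subunit of the mitochondrial pyruvate carrier, fell by 0.28 on the log2 scale (SE 0.09, adjusted p = 0.0363), a call lost in 9 of 16 alternatives, all 3 rescalings among them (adjusted p 0.0345 to 0.140). Of 12 cytosolic partners, 4 rose, 2 fell and 6 did not pass, and with the column number as a block 4 fell, the added ones being Idh1, the cytosolic isocitrate dehydrogenase (adjusted p = 0.00820, against 0.255), and Slc25a11. Glud1, glutamate dehydrogenase, was at 114, 118 and 110.5 FPKM in Epor-eGFP+ against 192, 185 and 220.1 FPKM in Epor-eGFP- (−0.79, SE 0.09, adjusted p = 0.000868). Slc25a1, the citrate carrier, rose by 0.74 (SE 0.09) and Slc25a10, the dicarboxylate carrier, by 0.68 (SE 0.11).

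Of 13 genes of fatty acid activation and entry, 4 rose, 2 fell and 7 did not pass. Among all tested genes 22.7% rose and 26.3% fell (28% and 30.4% with the column number as a block). With the column number as a block 6 rose, adding Fabp4 (adjusted p = 0.000942, against 0.0582) and Acsl5, and 3 fell, adding Acsl1. Lpl, lipoprotein lipase, was at 97.1, 96.2 and 176 FPKM in Epor-eGFP+ against 27.3, 33.8 and 22.5 FPKM in Epor-eGFP- (2.06, SE 0.26, adjusted p = 0.00128). Fabp5, a fatty acid binding protein, rose by 1.17 (SE 0.23, adjusted p = 0.00615), and Cd36, a fatty acid uptake receptor, by 1.04 (SE 0.29, adjusted p = 0.0220, lost without Epor-eGFP+ library 0 at 0.0737 or without both libraries numbered 2 at 0.0743, and 0.00490 to 0.0743 over 16 alternatives). The 2 that fell, named after their values were seen, were Slc25a20, the carnitine-acylcarnitine carrier that works beside Cpt1a (−0.48, SE 0.14, adjusted p = 0.0284, and 0.00468 to 0.137 over 16 alternatives), and Crot, the carnitine octanoyltransferase of peroxisomes (−0.31, SE 0.08, adjusted p = 0.0173, and 0.00921 to 0.0996 over 16). The fourth gene of this list that rose was Acsl3 (0.41, SE 0.12, adjusted p = 0.0276), and 7 of the 13 had no call. Beside Cpt1a, which fell, Cpt2 of the same carnitine step leaned higher without a call (0.25, adjusted p = 0.0560). The calls of Cd36, Acsl3, Slc25a20, Crot and Cpt1a were each lost in some alternatives. Of 12 other mitochondrial acyl-CoA genes, 6 rose, none fell and 6 did not pass (median 0.30). Pccb and Pcca, the subunits of propionyl-CoA carboxylase, rose by 1.18 (SE 0.12, adjusted p = 0.000790) and 0.83 (SE 0.12, adjusted p = 0.00202), and Ivd, isovaleryl-CoA dehydrogenase of leucine breakdown, by 0.88 (SE 0.21, adjusted p = 0.0127).

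Of 10 peroxisomal fatty acid oxidation genes, 1 rose, 3 fell and 6 did not pass (median −0.02), and with the column number as a block 2 rose and 4 fell. Among all tested genes 22.7% rose and 26.3% fell, or 28% and 30.4% with the block. Acox3, an acyl-CoA oxidase, was at 17.0, 14.8 and 16.5 FPKM in Epor-eGFP+ against 33.6, 27.8 and 36.9 FPKM in Epor-eGFP- (−0.98, SE 0.11, adjusted p = 0.00107). Abcd3, a peroxisomal importer of acyl-CoA, rose by 0.45 (SE 0.09, adjusted p = 0.00541). Scp2, a carrier and thiolase named after its values were seen, also fell (−0.32, SE 0.09, adjusted p = 0.0238, and 0.0118 to 0.0880 over 16 alternatives). Among 10 regulators, 3 rose, 3 fell and 4 did not pass (4 fell with the block, adding Hif1a), shares near those of all tested genes. Pparg, a nuclear receptor of lipid uptake and storage, was at 32.3, 23.1 and 62.2 FPKM in Epor-eGFP+ against 12.2, 6.66 and 10.9 FPKM in Epor-eGFP- (1.80, SE 0.37, adjusted p = 0.00711). Myc rose by 0.99 (SE 0.22, adjusted p = 0.0105) and Ppargc1b, a coactivator of mitochondrial genes that also passed the filter only through its Epor-eGFP+ values, by 0.47 (SE 0.11, adjusted p = 0.0134, and 0.00628 to 0.112 over 15 alternatives, of which only quantile normalization ended the call). The rise of Ppargc1b is therefore no support for the count of regulators that rose. The 3 regulators that fell, named after their values were seen, were the receptor Ppard (−0.46, SE 0.15), Esrra, the receptor ERR alpha (−0.37, SE 0.11), and Nrf1, a factor of mitochondrial genes (−0.29, SE 0.08). Over 16 alternatives their adjusted p was 0.0168 to 0.114 for Ppard, 0.00456 to 0.0918 for Esrra and 0.0164 to 0.148 for Nrf1.

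**Figure D4:**
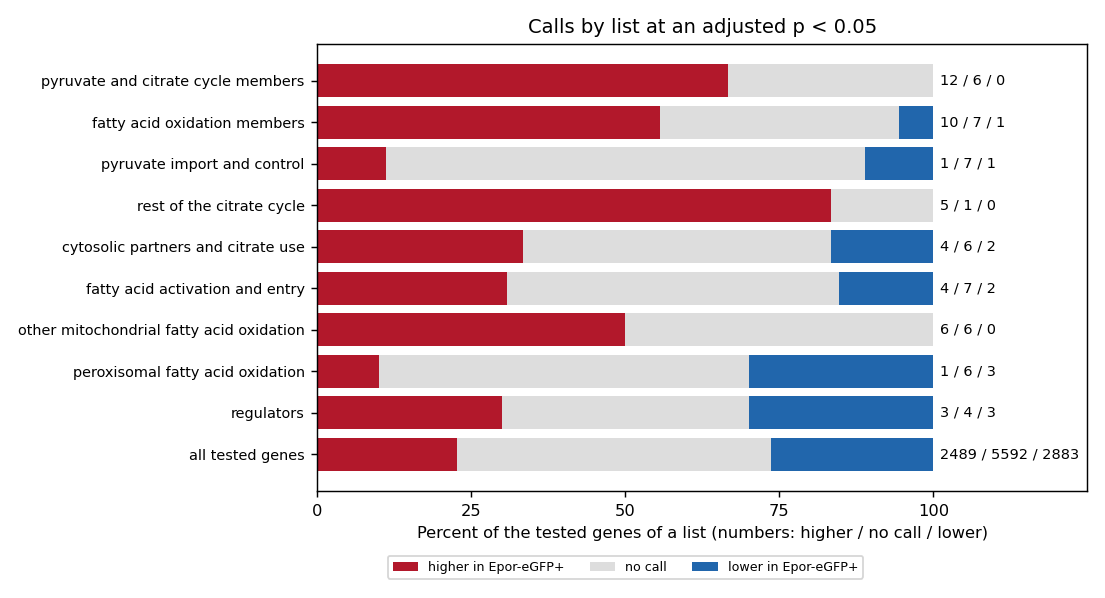
Share of the tested genes of each list that rose, did not pass or fell in Epor-eGFP+ cells, with the numbers beside each bar. The cycle members (12 of 18, Pcx included) and the list of the rest of the cycle (5 of 6, Dhtkd1 included) hold larger shares of rises than all tested genes (22.7%). So do the fatty acid oxidation members (10 of 18) and the list of other mitochondrial fatty acid oxidation (6 of 12). Pcx and Dhtkd1 passed the filter only through their Epor-eGFP+ values, and Dhtkd1 is not an enzyme of the cycle itself. The peroxisomal list holds 3 falls and 1 rise among 10 genes, with a share of falls near that of all tested genes (26.3%).

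Some members share sequence with other genes, and their single values are uncertain. In GENCODE M21, transcripts of Suclg2, Pdhb and Hadhb match another gene, outside any overlap, over at least 300 bases at 95% identity or more, and exons of Etfb and Gm45233 overlap on the same strand. Exons of Pdha1, Mdh1, Idh3b, Echs1, Acadvl, Hadha, Eci2 and Etfdh overlap a gene on the opposite strand. The TruSeq RNA kit named in the labels does not mark strand, so reads of such a pair cannot be told apart. On GRCm38, Idh2 lies on chromosome 7 from 80094846 to 80115392 (minus strand), Idh3a on chromosome 9 from 54586334 to 54604661 (plus strand), Suclg2 on chromosome 6 from 95473009 to 95718800 (minus strand), Etfb on chromosome 7 from 43444083 to 43457800 (plus strand) and Cpt1a on chromosome 19 from 3322334 to 3385733 (plus strand), and FPKM values are for whole genes.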

How the data were processed

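The authors deposited 1 table with FPKM values of 11489 genes in 6 RNA-seq libraries, made with a TruSeq RNA kit per the labels' protocols. The submitters' processing notes name Cufflinks 2.2.1, TopHat2 2.1.0, Trimmomatic 0.35 and bcl2fastq 2.19.1.403, with mm10 as the build, and no roles. The annotation, filters and scaling behind the values are not stated in these sources. Without counts, depth is unknown, and errors rest on the libraries alone. Total FPKM per library ran from 467176 to 519650. Column names hold a group and a number from 0 to 2 while titles count from 1 to 3, and each column was taken as a library of its group, tied to no single sample.

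The 10964 genes averaging 1 FPKM or more were fitted in limma 3.58.1 (R 4.3.3) on log2(FPKM + 1), with group as the only term, eBayes with a mean-variance trend, two-sided tests and Benjamini-Hochberg adjustment over all tested genes (threshold 0.05). Ratios were tested with exact two-sided permutation tests (scipy 1.17.1). Near-identical transcripts were searched with blastn 2.17.0. Libraries with the same column number deviated together from their group means (correlations 0.25, 0.38 and 0.35, each over 0.1, against −0.39 to 0.07 for other pairs), which by that threshold pairs them. Deviations from a group mean cancel within the group, so the contrast with other pairs is partly built in. The labels do not say what the column number stands for, and the fit with it as a block is an alternative. Other alternatives changed the pseudocount, filter, scaling, trend and libraries. Named members are those called with a log2 fold change of at least 0.5 either way and 16 fixed enzymes, with the other members given more briefly. From other lists up to 3 called genes with the largest change were named, apart from genes not reported here. The members and lists were chosen with earlier results of these data known.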

Additional observations from a re-analysis of the deposited data

How the results depend on the processing

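Across 16 alternatives to the fit, 17 of the 23 called members were called in every alternative that tested them, and the other 6 (Idh3g, Ogdh, Cpt1a, Hadh, Hadha and Acat1) each lost the call in at least 1. The number of members that rose was 22 as reported, 25 with the replicate block, 26 with libraries rescaled to a common total, 18 without both libraries numbered 2, and 17 to 24 with a single library left out. The number that fell was 1, and 0 to 1 with a single library left out, since Cpt1a lost its call without Epor-eGFP+ library 0, Epor-eGFP+ library 1 or Epor-eGFP- library 0, and the same holds for the fatty acid oxidation members alone. The cause of the lost call was not tested, and each of these fits also held fewer libraries. Of all tested genes, 2489 rose and 2883 fell, and with a single library left out 1634 (without Epor-eGFP+ library 0) to 2479 rose and 2057 to 2695 fell. With libraries rescaled to a common total, 3056 rose and 2082 fell, a shift in the share of rises among calls, and the median over the members was 0.40 against 0.08 over all genes.

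Paired by column number, the fit with the replicate block called 3066 genes higher and 3335 lower, kept all 23 member calls and added Cpt2, Acadvl and Eci2. Signs turned only for members without a call, with log2 fold changes from −0.11 (Acaa2) to 0.05 (Mdh2) in the main fit. Rescaling to a common total gave log2 fold changes of 0.0416 for Cs and 0.0388 for Dlst, and a common upper quartile 0.0032 for Cs and 0.00065 for Dlst. Quantile normalization moved Mdh2 to 0.26. With a single library left out, Mdh2 ranged between −0.0061 and 0.0793 and Acadl between −0.0208 and 0.0676. Without both libraries numbered 2, Acadl was at −0.0481 and Acaa2 at 0.0183. The difference in the ratio of Idh2 to Idh3a was −0.15 to 0.0078 with a single library left out. The differences of the other 4 ratios kept their signs, with Suclg2 to Sucla2 between 0.67 and 0.97 and Acadl to Acadm between −0.26 and −0.12. FPKM values carry no depth, so the precision of low genes such as Pcx cannot be judged from counts.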
